A study of Aconitum japonicum with 4 samples.

Results

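The transcripts described here are those of *Aconitum japonicum* that were dominant in daughter root. A transcript was taken as dominant where its expression in daughter root was at least 30 FPKM and at least 4 times its expression in each of leaf, mother root and rootlet, with at least 50 fragments counted in daughter root. FPKM is the number of fragments mapped to a transcript, divided by its effective length in kilobases and scaled to the size of the library. The effective length allows for the size of the fragments, and lengths in bases given below are full lengths. The rule was met by 390 of the 129760 transcripts of the assembly. Among the 5948 transcripts that reached 30 FPKM and 50 fragments in daughter root, 2500 (42%) were highest there and these members were 6.56%. Since the rule was applied to the measured FPKM, the higher level in daughter root is a description of how the members were chosen.

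The plants were grown in a greenhouse, and RNA was taken from daughter root, mother root, rootlet and leaf, with no treatment named for any of them. A single biological replicate of each tissue was sequenced, as 1 library per tissue, so no difference between tissues has a replicate check and no test between tissues was made. The expected counts of fragments summed to 12792781 in daughter root, 11801534 in mother root, 4492151 in rootlet and 4516426 in leaf. For a transcript of 1000 effective bases, 3 fragments gave 0.235 FPKM in daughter root, 0.254 FPKM in mother root, 0.664 FPKM in leaf and 0.668 FPKM in rootlet, so that the same low level was measured less precisely in the shallower libraries of leaf and rootlet. Limits given for an FPKM are exact 95% Poisson limits of its fragments, and those in parentheses after a ratio are conditional Clopper-Pearson limits. Neither includes the variation between plants.

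Aconites are perennials with tuberous roots. The mother root is the tuber from which the shoot of the season grows, and the daughter root is a new tuber formed beside it that carries the plant over to the next season, while rootlets are the thin absorbing roots. A growing tuber divides and enlarges its cells, lays down cell wall and fills with starch, and the tubers of this genus are also known for diterpene alkaloids.

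Transcript names follow the Trinity assembler, in which TR and c together name a cluster of reads, g a gene within it, and i one transcript of that gene. Transcripts that share a TR number are grouped here as an assembly graph, which can join several read clusters. The 390 members belonged to 344 Trinity genes in 297 assembly graphs. A protein description from a Blastx search was held for 9 members, out of 1378 described transcripts in the part of the annotation used here, so most members are given by name and level alone. Each tissue was also checked against a leaf marker. The only tested transcript of the photosynthesis list, TR836|c0_g1_i1, described as the alpha subunit of cytochrome b559 of photosystem II, had 0.19 FPKM in daughter root, 0 in mother root, 0 in rootlet and 23.67 in leaf.

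In daughter root the members ranged from 30.01 to 12563 FPKM, with a median of 96.4 FPKM and quartiles of 51.9 and 345 FPKM. Of the 390 members, 95 lay between 30 and 50 FPKM, 103 between 50 and 100 FPKM, 140 between 100 and 1000 FPKM, and 52 at or above 1000 FPKM. The fragments behind these values ranged from 51 to 117722 per member, with a median of 866. Together the members held 10.7% of all fragments of the daughter root library (10.66 to 10.69, counting error only), against 1.01% in mother root, 0.452% in rootlet and 0.364% in leaf. In such bulk tissue, fewer cells of a type and less RNA per cell cannot be told apart. The 10 members with the most fragments accounted for 39.4% of the fragments of the set and for 4.21% of the library. The 52 members at or above 1000 FPKM held 65.5% of the fragments of the set and came from 31 assembly graphs.

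In the other tissues most members were low but present. Their median expression was 2.57 FPKM in leaf, 8.11 FPKM in mother root and 5.33 FPKM in rootlet. Over all 5948 transcripts with the same minimum in daughter root, these medians were 36.7, 62.0 and 56.1 FPKM, each above 30 FPKM. No fragment was counted for 75 members in leaf, where 2.98% of the 5948 had none. The same held for 36 members in rootlet and 11 in mother root. Under 10 fragments were counted for 243, 174 and 79 members in leaf, rootlet and mother root. The rule itself holds members low in these tissues, and leaf and rootlet were shallower libraries, so these counts only describe the set. At the other end, 31 members reached 30 FPKM in leaf, 76 in mother root and 51 in rootlet while still lying at least 4-fold below daughter root. The set therefore held both transcripts nearly confined to the daughter root library and transcripts that were abundant in other tissues as well.

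The median ratio of daughter root to mother root over the members was 10.8, a log2 ratio of 3.44, where the median over all 5948 transcripts with the same minimum in daughter root was 1.06. Against rootlet the median ratio of the members was 23.3 and that of all 5948 was 1.3. Against leaf these medians were 59.2 and 2.08. Members with 0 fragments in the other tissue were counted here as above the median. With these set instead at a floor of 3 fragments in that tissue, the median ratios were 10.8 to mother root, 20.1 to rootlet and 35.8 to leaf. Each single limit of the rule was met by more transcripts than the 3 together. Of the 5948, 1661 (27.9%) were at least 4 times as high in daughter root as in leaf, 798 (13.4%) as in rootlet and 548 (9.21%) as in mother root, so that the limit against mother root was met least often.

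The ratio of daughter root to the highest of the other 3 tissues had a median of 7.80 and quartiles of 5.01 and 17.3. Of the 390 members, 95 had a ratio between 4 and 5, 130 between 5 and 10, 69 between 10 and 20, 38 between 20 and 50, 29 between 50 and 100, and 20 had a ratio of at least 100. The other 9 members had no fragment in any of the other 3 tissues. The lower counting limit of every ratio was at least 4 for 281 members, or 4.72% of the 5948, and above 1 for all 390. These limits rest on the same counts as the rule, without correction for that choice. They describe counting error and are no separate support for the members. The plot of daughter root against the highest other tissue shows members beyond the 100-fold line up to 1224 FPKM in daughter root, reached by TR1414|c0_g1_i1, and none beyond it above that level.

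**Figure D1:**
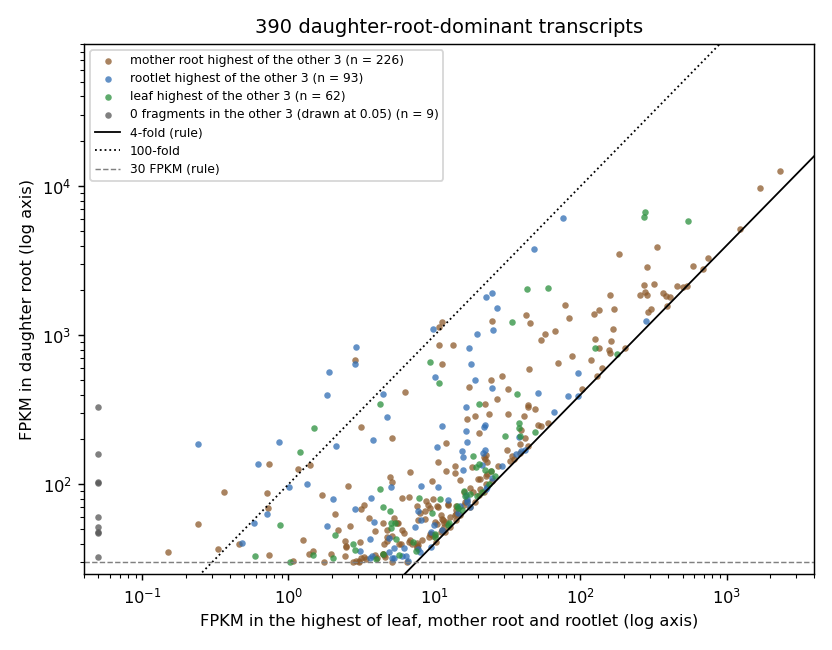
Expression of each of the 390 members in daughter root (vertical axis, FPKM, log scale) against its expression in the highest of the other 3 tissues (horizontal axis, FPKM, log scale), 1 point per transcript, coloured by which tissue that was. The solid line is the 4-fold limit and the dashed line the 30 FPKM limit of the rule, the dotted line marks 100-fold, and the 9 members with 0 fragments in the other 3 tissues are drawn at 0.05.

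At the edge of the rule, the members with the smallest ratios were TR29033|c0_g1_i1 at 4.01, TR33352|c0_g2_i1 at 4.01 and TR44291|c1_g1_i1 at 4.02. Just outside lay TR46325|c2_g1_i4 at 3.99, TR37008|c0_g1_i1 at 3.97 and TR45130|c0_g1_i2 at 3.96. A further 117 transcripts reached 3 to 4 times each other tissue and 267 reached 2 to 3 times, so the members formed the upper end of a continuous range. A further 6 transcripts met the limits on fold and FPKM with fewer than 50 fragments, among them TR976|c0_g1_i1, described as polyphenol oxidase, at 31.65 FPKM from 49 fragments. Just under 30 FPKM were TR42555|c0_g2_i2 at 29.92 FPKM, with 0 fragments elsewhere, and TR49460|c0_g1_i1 at 29.82 FPKM.

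Of the 9 described members, all but TR18584|c0_g1_i1 carried the name of a protein. TR17273|c2_g1_i1 was described as 1-aminocyclopropane-1-carboxylate oxidase (ACC oxidase), the enzyme that releases ethylene in the last step of its synthesis. Its expression was 2223.46 FPKM in daughter root, 317.76 in mother root, 15.19 in rootlet and 1.43 in leaf. Both tubers were high and the leaf and rootlet low, and daughter root lay 6.997-fold above mother root (6.77 to 7.23). With 30889 fragments in daughter root it was the most highly expressed of the described members. Of the 4 transcripts on the ethylene list, 2 reached 5 FPKM in any tissue, and the other one, TR12853|c0_g2_i1, described as ACC oxidase homolog 1, lay between 1.27 and 5.04 FPKM in all 4 libraries.

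On the cell wall list were 2 members. TR17540|c0_g1_i1 was described as a xyloglucan endotransglycosylase/hydrolase, an enzyme that cuts and rejoins the xyloglucan chains between cellulose fibrils and so lets walls extend. It had 168.56 FPKM in daughter root, 2.66 in mother root, 15.43 in rootlet and 1.40 in leaf. After daughter root the rootlet was highest, at a ratio of 10.9 (6.03 to 22.1), and leaf and mother root were lowest, with 1 and 5 fragments. TR13416|c0_g1_i1 was described as a cellulose synthase, a subunit of the plasma membrane complex that spins cellulose. It had 109.93 FPKM in daughter root, 24.24 in mother root, 24.76 in rootlet and 9.71 in leaf, so mother root and rootlet were level with each other and daughter root lay 4.44-fold above rootlet (3.11 to 6.54). On the oxidase list was TR15649|c0_g1_i1, described as a homolog of L-ascorbate oxidase, a copper enzyme that oxidises ascorbate outside the cell. Its expression was 134.16 FPKM in daughter root, 5.43 in mother root, 21.14 in rootlet and 2.27 in leaf. Here too the rootlet was next, 6.35-fold lower (4.56 to 9.10).

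TR1414|c0_g1_i1 carried the description pEARLI 1, which in *Arabidopsis thaliana* is a hybrid proline-rich protein of the cell wall with a domain like that of lipid transfer proteins. It had 1223.78 FPKM in daughter root, 11.2 in mother root, 4.38 in rootlet and 0.40 in leaf. Outside daughter root the transcript was low, with 1 fragment in leaf and 11 in rootlet, and daughter root lay 109-fold above mother root (87.0 to 139). The other tested transcript of the list of proline-rich and lipid transfer proteins, TR15762|c0_g1_i1, had the opposite order, with 77.08 FPKM in leaf and 0.37 FPKM in daughter root.

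TR15421|c0_g1_i1 was described as 1,4-alpha-glucan branching enzyme, which makes the branch points of starch. It had 137.66 FPKM in daughter root, 15.31 in mother root, 8.66 in rootlet and 20.13 in leaf. Leaf, mother root and rootlet overlapped within their counting limits, from 7, 14 and 3 fragments, and daughter root lay 6.84-fold above leaf (3.23 to 17.3), a range that reached below the 4-fold limit. TR10928|c0_g1_i1 was described as pyruvate kinase, the last enzyme of glycolysis, with 42.54 FPKM in daughter root, 6.77 in mother root, 4.46 in rootlet and 2.22 in leaf. It rested on 55 fragments in daughter root and at most 8 in any other library, and its ratio to mother root was 6.28 (2.98 to 15.3). On the glycolysis list, 3 of the 5 tested transcripts were highest in daughter root. These were all described as pyruvate kinase, and the other pair had 105.38 FPKM (TR15884|c0_g1_i1) and 51.1 FPKM (TR10068|c0_g1_i1) there.

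TR50314|c1_g1_i1 was described as 3-hydroxy-3-methylglutaryl-CoA reductase 2 (HMGR), which commits carbon to the mevalonate pathway, the cytosolic source of isoprenoids. It had 33.34 FPKM in daughter root, 4.06 in mother root, 5.33 in rootlet and 5.71 in leaf. It was the only member among the 12 tested transcripts of the mevalonate list, of which 10 were highest in daughter root. Some of the 10 led narrowly, as TR49281|c2_g1_i2 did with 27.38 FPKM in daughter root and 26.96 in leaf. The 12 included several transcripts of the same Trinity gene, so they are not independent. The other listed transcripts of the TR50314 graph were not members. TR50314|c2_g1_i1 had 56.24 FPKM in daughter root, 41.22 in mother root and 41.77 in rootlet. TR50314|c2_g1_i5 had 53.63, 64.53 and 65.8 FPKM in these tissues, with daughter root the lowest of the roots. The same graph held, in another read cluster, a second member with no description, TR50314|c0_g1_i1, of 226 bases. Its expression was 71.92 FPKM in daughter root, 7.56 in mother root, 8.55 in rootlet and 14.2 in leaf. TR18584|c0_g1_i1 carried only an *Arabidopsis* locus name, AT5g51550, as its description. Its expression was 100.6 FPKM in daughter root, 2.89 in mother root, 5.06 in rootlet and 23.52 in leaf, so that here the leaf came next, at a ratio of 4.28 (2.91 to 6.53), and the mother root was lowest. By the lower counting limits of their ratios, 4 of the 9 described members stayed above 4-fold, namely ACC oxidase, pEARLI 1, the xyloglucan endotransglycosylase and the ascorbate oxidase homolog.

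**Figure D2:**
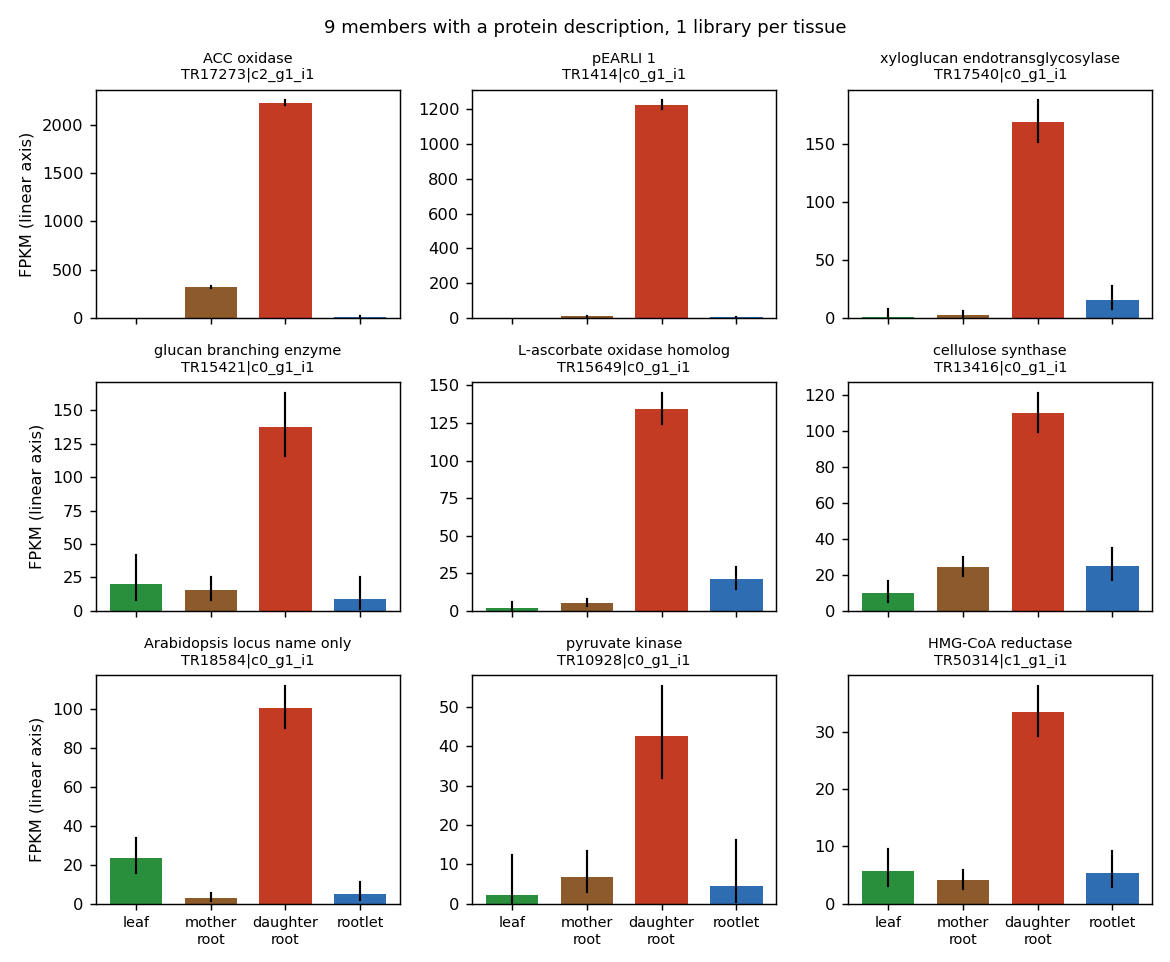
Expression of the 9 described members (FPKM, linear axis from 0, each panel with its own scale) in the single library of each tissue, with vertical lines for the exact 95% Poisson limits. The daughter root bar is the tallest in every panel, as the rule requires, while the next tissue is mother root for ACC oxidase, pEARLI 1 and pyruvate kinase, rootlet for xyloglucan endotransglycosylase, cellulose synthase and the ascorbate oxidase homolog, and leaf for the remaining 3.

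Of all 581 described transcripts with at least 5 FPKM in at least 1 library, on a list or not, 99 (17.04%) were highest in daughter root. On the cell wall list 5 of 8 were highest in daughter root, 2 of them members and so by the rule. The non-member with the highest level was TR13828|c0_g1_i1, described as cellulose synthase, at 159.34 FPKM in daughter root against 70.59 in mother root. TR18224|c0_g1_i1 and TR1495|c0_g1_i1, also highest there, rested on 9 and 11 fragments in daughter root. The list of starch and sucrose enzymes had 1 of 2 highest in daughter root, the branching enzyme above. Among the oxidases 3 of 5 were highest in daughter root, with 140.81 FPKM for the non-member TR14431|c0_g1_i1, described as peroxidase 12, and 99.92 FPKM for it in leaf. The list for dividing cells, such as histones and tubulins, had 4 of 8 highest in daughter root but no member. Its most abundant transcript, TR16423|c0_g2_i1, described as histone H3, had similar levels in the roots and a lower one in leaf, with 382.45 FPKM in daughter root, 331.06 in mother root, 315.22 in rootlet and 194.38 in leaf. The list of storage proteins and protease inhibitors had none of 4 highest in daughter root. The highest level there was 27.66 FPKM for TR11279|c0_g1_i1, described as a pathogenesis-related thaumatin. The others were described as Kunitz-type protease inhibitors and a late embryogenesis abundant protein, so no transcript named as a storage protein was tested. The list for auxin, gibberellin and cytokinin had 1 of 2, TR905|c0_g1_i1, described as auxin-induced, at 5.50 FPKM. It rested on 6 fragments in daughter root and 1 in leaf. The other was described as a gibberellin receptor, so no transcript named for cytokinin was tested. These lists are short and were drawn from the held part of the annotation, so their counts describe only the transcripts named in it. The lists were chosen with earlier results of these data known, and members on them are highest in daughter root by the rule. For this reason nothing is read from their counts beside the 17.04%.

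The 10 most highly expressed members had no description in the annotation used here. The highest was TR45464|c2_g6_i1, a transcript of 257 bases, with 12563 FPKM in daughter root, 2320.31 in mother root, 196.43 in rootlet and 4.08 in leaf. It was abundant in both tubers and lay 5.41-fold higher in daughter root (5.21 to 5.63). TR45629|c4_g8_i4 followed with 9695.77, 1682.02, 176.22 and 60.09 FPKM in daughter root, mother root, rootlet and leaf, again with mother root next and leaf lowest. TR53570|c3_g1_i1, at 5180.19, 1228.94, 568.67 and 82.96 FPKM in these tissues, also had mother root next, close to the 4-fold limit at a ratio of 4.22 (4.07 to 4.36).

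Among the same 10, another order was seen in which the leaf came second and the mother root was low. TR9350|c0_g1_i1 had 5861.07 FPKM in daughter root, 3.10 in mother root, 35.52 in rootlet and 548.62 in leaf. Daughter root was 10.7-fold above leaf (10.3 to 11.1), whereas mother root had 41 fragments against 84198 in daughter root, so the 2 tubers differed more than daughter root and leaf did. TR45629|c3_g1_i4, at 6679.09, 84.49, 41.81 and 278.73 FPKM in daughter root, mother root, rootlet and leaf, and TR45629|c4_g5_i2, at 6189.4, 58.71, 43.95 and 273.93 FPKM, had the leaf next as well.

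The member with the most fragments, TR36775|c0_g1_i1, was 1658 bases long and held 117722 fragments, or 0.920% of the daughter root library. It had 6090.36 FPKM in daughter root, 51.06 in mother root, 76.38 in rootlet and 16.87 in leaf, and the ratio to rootlet was 79.7 (73.1 to 87.1). All other tissues were low and within 5-fold of each other. TR51937|c2_g1_i1, of 1992 bases, had 3905.47 FPKM in daughter root, 335.11 in mother root, 98.04 in rootlet and 39.75 in leaf, with mother root next at a ratio of 11.7 (11.4 to 11.9). In TR51427|c3_g1_i1 no fragment was counted in leaf, and expression was 3767.78 FPKM in daughter root, 48.05 in rootlet and 5.67 in mother root. TR45629|c4_g3_i1 closed this group with 3506.6 FPKM in daughter root, 182.36 in mother root, 81.61 in rootlet and 120.59 in leaf.

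The largest ratios to the next tissue were not found among the most abundant members. TR44307|c1_g1_i1, of 1073 bases, had 186.91 FPKM in daughter root, 0.18 in mother root, 0.24 in rootlet and 0 in leaf. Its ratio to rootlet of 779 rested on 1 fragment there, so the counting limits ran from 139 to 30680. For TR12479|c0_g1_i1 the values were 571.38, 1.43, 1.89 and 0 FPKM in daughter root, mother root, rootlet and leaf, and the ratio to rootlet of 302 (54.1 to 11954) again rested on 1 fragment. TR16381|c0_g1_i1 had 1 fragment in mother root (0.36 FPKM) and 0 in leaf and rootlet, against 265 in daughter root (88.54 FPKM), and a ratio to mother root of 246 (43.3 to 9655).

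More fragments in the next tissue lay behind the ratios of TR45105|c0_g1_i2 and TR50857|c2_g5_i1. The former, 1534 bases long, had 838.53 FPKM in daughter root, 0.86 in mother root, 2.89 in rootlet and 0 in leaf. With 14878 fragments in daughter root and 18 in rootlet, the ratio was 290 (183 to 489). With leaf set at the floor of 3 fragments the ratio to leaf was 1749, and its lower counting limit from 0 fragments was 1422. TR50857|c2_g5_i1 had 679.37 FPKM in daughter root, 2.84 in mother root, 2.80 in rootlet and 2.23 in leaf. The 3 other tissues were level within counting error, and daughter root lay 239-fold above mother root (175 to 335).

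The 9 members with no fragment outside daughter root had between 104 and 354 fragments there. The highest was TR30076|c0_g1_i1 at 328.48 FPKM from 354 fragments. With the other tissues set at the floor of 3 fragments its smallest ratio was 40.8, to rootlet, where the lower counting limit was 33.0. Next were TR56134|c0_g1_i1 at 159.23 FPKM, TR31743|c0_g2_i2 at 103.07 FPKM and TR31743|c0_g1_i1 at 102.05 FPKM. The remaining 5 were both transcripts of TR37321|c1_g1 at 60.72 and 47.83 FPKM, both of TR30378|c0_g1 at 51.58 and 46.84 FPKM, and TR56555|c0_g1_i1 at 32.46 FPKM. The smallest ratio set by this floor among the 9 was 12.1, for TR37321|c1_g1_i2. These transcripts were chosen for their counts of 0, and with 1 library they are given as values only. Of these 9 transcripts, 6 were pairs from 3 assembly graphs and so are not independent of each other.

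Mother root was the next highest tissue for 226 members (57.9%), rootlet for 93 (23.8%) and leaf for 62 (15.9%). Over all 5948 transcripts with the same minimum in daughter root, the highest of the other 3 tissues was mother root in 53.2%, rootlet in 28.1% and leaf in 18.6%. The shares among the members were near this background. Where mother root came next, its median was 12.4 FPKM, against 5.02 in rootlet and 2.08 in leaf. Rootlet lay above leaf in 154 of these 226 members. For 61 of the 226 (27.0%), mother root was itself at least 4 times both leaf and rootlet, against 5.25% of the 3163 transcripts at the same minimum with mother root next. The rule set limits on leaf and rootlet as well, so nothing is read from this difference. ACC oxidase and the pair of most abundant members belonged to these 61, although the pair still had 196.43 and 176.22 FPKM in rootlet.

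For the 93 members with rootlet next, the medians were 133 FPKM in daughter root, 10.3 in rootlet, 5.06 in mother root and 1.79 in leaf. Rootlet was at least 4 times both leaf and mother root in 15 of them (16.1%, against 9.28% of the 1670 at the same minimum with rootlet next). An example with a small distance between daughter root and rootlet was TR35185|c0_g1_i1, chosen after its values were seen, at 1239.61 FPKM in daughter root, 48.48 in mother root, 281.49 in rootlet and 0 in leaf. For the 62 members with leaf next, the medians were 85.4 FPKM in daughter root, 12.5 in leaf, 3.51 in rootlet and 3.46 in mother root. Leaf was at least 4 times both mother root and rootlet in 15 of these (24.2%, against 10.4% of 1106). In this group the medians of the 2 remaining root tissues were about level. The groups were formed by which tissue came next, and the rule limited every other tissue. For this reason nothing is read from these shares and levels.

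**Figure D3:**
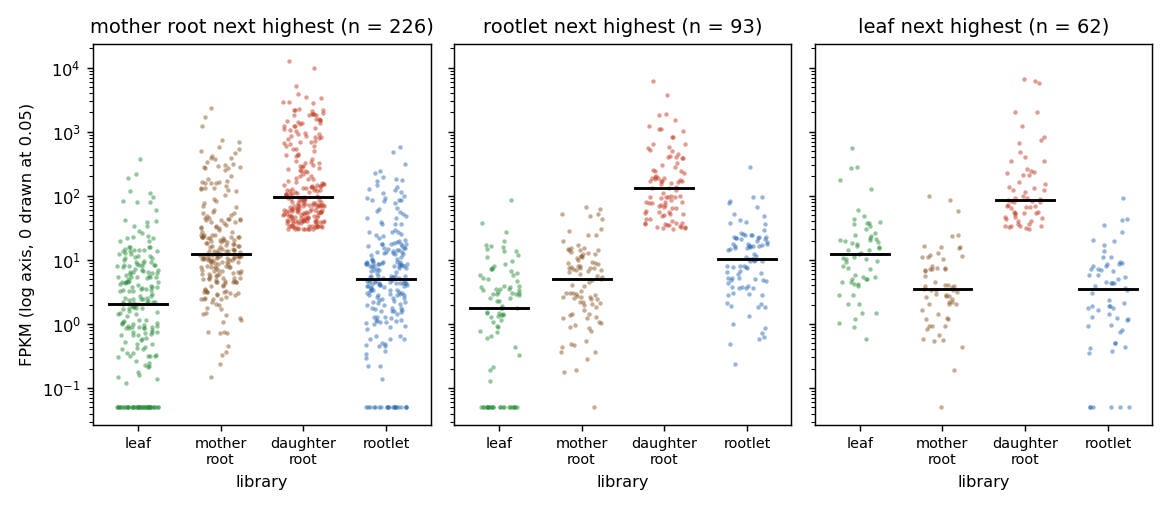
Expression of members (FPKM, log axis, with 0 drawn at 0.05) in each library, split by the tissue that was highest after daughter root, with 1 point per transcript and a horizontal line at the median. Daughter root medians are 94.2, 133 and 85.4 FPKM for the 226, 93 and 62 members, and the next tissue has medians of 12.4, 10.3 and 12.5 FPKM.

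By the same rule with another tissue in place of daughter root, 973 transcripts were dominant in leaf (19.2% of the 5074 at that level there), 654 in rootlet (10.9% of 6023) and 49 in mother root (0.789% of 6212). The daughter root set thus lay between those of rootlet and mother root, and the 2 tubers differed in that few transcripts were dominant in the older one. The median length was 653 bases in the daughter root set, 952 in the leaf set, 715 in the rootlet set and 332 in the mother root set. These sets held 27.8% of the fragments of the leaf library, 8.31% of rootlet and 0.549% of mother root, against the 10.7% of daughter root. With single libraries, the differences between the sets were not tested.

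The median length of the members was 653 bases, with a range from 224 to 3652, against 849 bases over the 5948, which include the members and had a lower median of 67.6 FPKM in daughter root. Of the members 34.1% were longer than 1000 bases, against 43.2% of the 5948, and 14.6% were at most 300 bases, against 11.9%. The 52 members at or above 1000 FPKM had a median length of 477 bases, and 14 of them were at most 300 bases. Whether several short members are pieces of 1 gene was not tested.

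Several assembly graphs held many members at once. In TR53276, 8 of 10 transcripts were members and all 10 were highest in daughter root, with summed expression of 13617 FPKM in daughter root, 2361 in mother root, 1018 in rootlet and 157 in leaf. The 2 transcripts of this graph that were not members, TR53276|c1_g7_i1 and TR53276|c1_g1_i4, had 2188 and 352 FPKM in daughter root and ratios to mother root of 2.93 and 1.96. Thus the transcripts of the graph kept the same order over the tissues, with mother root next in each, and differed in how far daughter root stood above it. The member of this graph with the largest ratio was TR53276|c1_g1_i2, at 452.66 FPKM in daughter root and 17.17 in mother root.

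In TR45629, 7 of 11 transcripts were members and all 11 were highest in daughter root, but the members were of 2 kinds. TR45629|c3_g1_i4, TR45629|c4_g5_i2 and TR45629|c4_g7_i1 had leaf next, and TR45629|c4_g7_i1 had 825.77 FPKM in daughter root, 7.14 in mother root, 8.06 in rootlet and 125.69 in leaf. The other 4, with all 3 transcripts of TR45629|c4_g8 among them, had mother root next. The 3 transcripts of TR45629|c4_g4 were not members, since mother root also had between 1391 and 2280 FPKM of them, and they had between 6.97 and 26.67 FPKM in leaf. The remaining non-member, TR45629|c1_g1_i1, was about level between daughter root (17.16 FPKM, 36 fragments) and mother root (16.62 FPKM, 32 fragments). In sum the 11 transcripts reached 43170 FPKM in daughter root, 7890 in mother root, 3121 in rootlet and 965 in leaf.

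TR53570 had 5 members among 7 transcripts, and all 7 were highest in daughter root with mother root next. In TR51427 all 4 transcripts of the gene TR51427|c3_g1 were members, at 3767.78, 1909.99, 406.13 and 1101.81 FPKM in daughter root, as was the only one of TR51427|c3_g2. The gene TR51427|c3_g1 had summed expression of 7186 FPKM in daughter root, 9.20 in mother root, 87.1 in rootlet and 1.80 in leaf, so the rootlet was a distant second and the mother root, the other tuber, was nearly without it. The 8 other transcripts of this graph, which lay in other read clusters, had at most 23.1 FPKM in daughter root, and none was highest there.

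**Figure D4:**
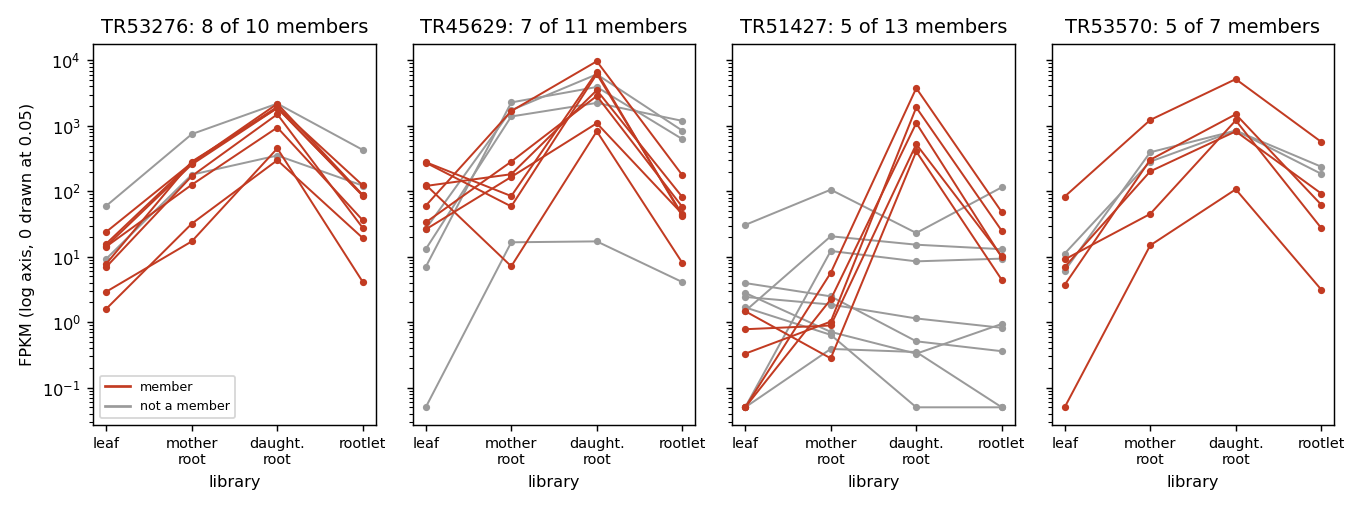
Expression (FPKM, log axis, with 0 drawn at 0.05) over the 4 libraries of every transcript of the 4 assembly graphs with at least 5 members, with 1 line per transcript, red for members and grey for the others. In TR53276, TR45629 and TR53570 all transcripts are highest in daughter root, although TR45629|c1_g1_i1 is about level there (17.16 FPKM) and in mother root (16.62 FPKM). In TR51427 the 5 members stand apart from 8 transcripts with at most 23.1 FPKM in daughter root.

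The other genes with at least 3 members were expressed at lower levels. The 3 transcripts of TR47219|c0_g2 summed to 206.5 FPKM in daughter root, 2.15 in mother root, 1.34 in rootlet and 0.19 in leaf, and those of TR35363|c0_g2 to 128.57, 0.80, 4.82 and 0 FPKM in the same order. Both had few fragments outside daughter root. TR45374|c0_g1 (143.39, 29.41, 13.1 and 7.67 FPKM) and TR52803|c1_g1 (142.72, 16.06, 8.31 and 7.01 FPKM) had low but measurable levels elsewhere, with mother root next. In TR45935|c2_g3, 3 of 5 transcripts were members and all 5 were highest in daughter root, and in TR53570|c4_g2, 3 of 4 were members and all 4 were highest there.

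Since transcripts of a gene share sequence, the division of fragments among them is uncertain, and expression was also summed over each Trinity gene. Of the 344 genes with a member, 266 had a single transcript. The sum met the rule for 317 of the 344, and for 51 of the 78 genes with several transcripts. It was highest in daughter root for 338. The 344 genes had 107 further transcripts that were not members, of which 60 were highest in daughter root, 26 in mother root, 18 in leaf and 3 in rootlet.

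For 6 genes the sum was highest in another tissue, and the member was 1 transcript, or in TR43508|c1_g1 a pair, set against others of the same gene. In TR47361|c1_g1 the member TR47361|c1_g1_i2, of 1466 bases, had 597.46 FPKM in daughter root, 44.49 in mother root, 8.78 in rootlet and 41.34 in leaf. The 5 other transcripts of the gene were each highest in leaf, between 251 and 409 FPKM, and at most 64.9 FPKM in daughter root. These included TR47361|c1_g1_i8, which at 1515 bases was similar in length to the member and had 252.59 FPKM in leaf and 54.86 in daughter root. In sum the gene had 1464 FPKM in leaf and 717 in daughter root.

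In TR47832|c3_g2 the member TR47832|c3_g2_i7 had 66.98 FPKM in daughter root and 15.36 in leaf, while the most abundant transcript, TR47832|c3_g2_i2, had 27.29 FPKM in daughter root and 1567.39 in leaf. The sums were 138 FPKM in daughter root and 2517 in leaf, and daughter root had the lowest sum of the 4 tissues. TR43508|c1_g1 had members TR43508|c1_g1_i4 and TR43508|c1_g1_i6 at 77.87 and 83.13 FPKM in daughter root, and 3 transcripts highest in leaf. The sums were 242 FPKM in daughter root and 332 in leaf.

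In the other 3 of these genes the mother root had the highest sum. TR50826|c2_g1_i1, a member of 1251 bases, had 114.21 FPKM in daughter root, 22.66 in mother root, 2.83 in rootlet and 2.21 in leaf, whereas TR50826|c2_g1_i2 of the same gene had 9.48, 103.06, 60.55 and 0.63 FPKM in the same order. Mother root and rootlet were high in the latter and daughter root low, the reverse of the member. In TR48475|c3_g1 the member TR48475|c3_g1_i2 had 914.04 FPKM in daughter root and 161.85 in mother root, within a gene that summed to 7742 and 15095 FPKM. TR45585|c1_g1_i6 had 62.17 FPKM in daughter root and 15.03 in mother root, in a gene with sums of 168 and 228 FPKM. Whether these are splice forms, alleles or copies of a gene cannot be told apart from the counts.

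**Figure D5:**
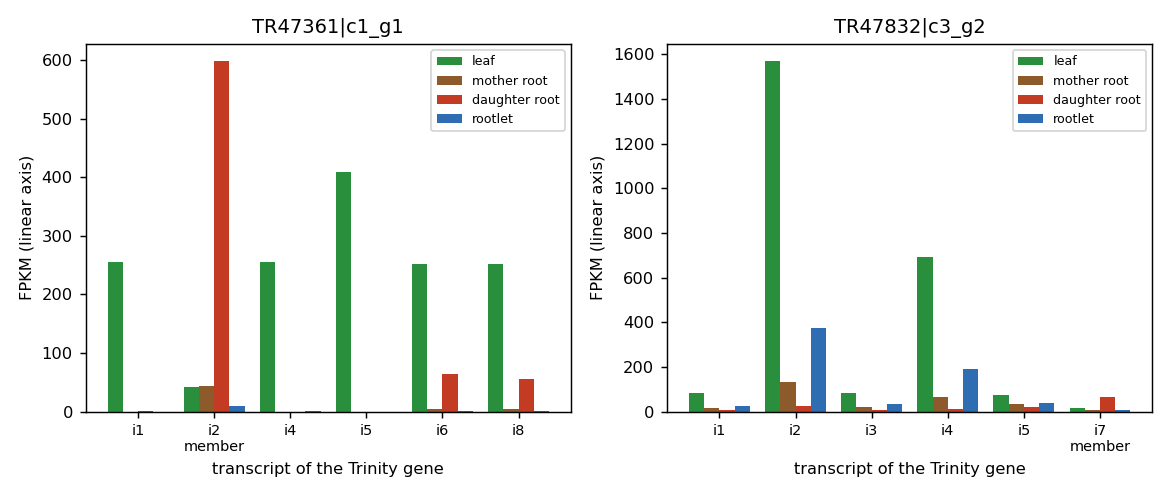
Expression (FPKM, linear axis from 0) in each library of every transcript of TR47361|c1_g1 and TR47832|c3_g2, with 1 bar per tissue and the member marked. In TR47361|c1_g1 the member is at 597 FPKM in daughter root and the 5 other transcripts are highest in leaf, and in TR47832|c3_g2 the member is at 67.0 FPKM in daughter root while the leaf bars of 2 others reach 693 and 1567 FPKM.

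Orthogroups are sets of transcripts grouped by their translated sequence, here over *A. japonicum*, *A. carmichaelii* and *A. heterophyllum*. In the part of the orthogroup lists used, OG0000015 held the most members. It had 14 transcripts of *A. japonicum*, 12 of *A. carmichaelii* and 3 of *A. heterophyllum*, and 6 of the 14 were members, with 5 from TR45629 and TR29111|c0_g2_i1, which had 199 FPKM in daughter root, 0.97 in mother root, 3.82 in rootlet and 1.27 in leaf. The other 8 had different orders over the tissues. TR31215|c0_g1_i1 and TR31215|c0_g4_i1 were leaf transcripts, at 593.43 and 989.71 FPKM in leaf with 0 in mother root and rootlet. The 5 transcripts of TR45464 in the orthogroup were abundant in all root tissues. They had between 313 and 5928 FPKM in daughter root, 769 and 2319 in mother root, and 326 and 822 in rootlet. In TR45464|c2_g8_i5 mother root was highest, at 769.34 FPKM, and rootlet (325.55 FPKM) was about level with daughter root (313.27 FPKM). TR9004|c0_g1_i1 had 161.04 FPKM in leaf and 297.77 in daughter root, with 2.82 in mother root and 5.58 in rootlet.

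In OG0000231 the 3 transcripts of *A. japonicum* were each highest in a different tissue. The member TR52671|c0_g2_i1, of 2912 bases, had 763.64 FPKM in daughter root, 158.18 in mother root, 17.48 in rootlet and 2.08 in leaf. TR52671|c0_g4_i1, of 2266 bases and from the same assembly graph, had 172.42 FPKM in leaf and at most 0.42 FPKM in any root tissue. TR47727|c0_g1_i1, of 1680 bases, had 72.52 FPKM in rootlet and at most 2.10 elsewhere. The member still had a level in rootlet, where TR47727|c0_g1_i1 was highest. The other transcript of the member's Trinity gene, TR52671|c0_g2_i3, was also a member. It had 244.47 FPKM in daughter root, 4.91 in mother root, 11.18 in rootlet and 0.43 in leaf, so there rootlet and not mother root came next.

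OG0000070 had 8 transcripts of *A. japonicum*, of which TR686|c0_g2_i1 was described as a partial beta-tubulin, a subunit of microtubules. Its member TR38330|c0_g1_i1 had 127.33 FPKM in daughter root, 1.16 in mother root, 0.34 in rootlet and 0.67 in leaf, and its member TR50268|c0_g1_i1 had 84.45, 20.27, 17.5 and 3.56 FPKM in the same order. The former was nearly confined to the daughter root library, whereas TR47601|c2_g1_i1 of the same orthogroup was expressed everywhere, between 67.1 and 143 FPKM. In OG0000018, with 6 transcripts, the member TR43759|c0_g5_i1 had 52.48 FPKM in daughter root and at most 1.84 elsewhere, and the most abundant transcript, TR35925|c0_g1_i2, had 210.58 FPKM in daughter root and 72.8 in rootlet.

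Of the members, 20 appeared in the held part of the single-copy orthogroups, in which each of the 3 species has 1 transcript. This was 5.13% of the members, against 6.79% of the 5948. TR45105|c0_g1_i2, among the largest ratios above, was one of them. The study also listed orthogroups with transcripts of *A. japonicum* and *A. carmichaelii* but none of *A. heterophyllum*. The paper cautions that this absence could come from the fewer tissues behind the *A. heterophyllum* assembly. A further 7 members were in the held part of this list, named as particular to the toxic species, 1.79% against 0.841% of the 5948. The highest of these in daughter root were TR45629|c4_g7_i1, above, and TR14192|c0_g1_i1, with 536.53 FPKM in daughter root, 28.9 in mother root, 20.03 in rootlet and 10.63 in leaf. The other 5 had between 32.3 and 124 FPKM in daughter root, and for TR37079|c0_g1_i1, at 59.33 FPKM, mother root was the only other tissue with fragments, at 5.30 FPKM.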

How the data were processed

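The authors used Trimmomatic for trimming, Trinity for an assembly over the 4 tissues, CD-HIT-EST for redundancy, Bowtie 2 for alignment and RSEM for quantification. The deposited tables give expected counts and FPKM per transcript, and both were used as deposited by the authors. The TPM and isoform percent columns were not used, no sample column was left unmapped (0), and whether counting used strand is not given in the sources used here. All expected counts were whole numbers, and FPKM recomputed from them matched the listed FPKM of all transcripts to 0.0051 plus 0.1%. No genome was used, so no positions are given.

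Members were found with pandas 2.3.3, numpy 2.4.6 and scipy 1.17.1 in Python 3.11.15, and matplotlib 3.10.9 drew the figures. The members and lists were chosen with earlier results of these data known. With 1 library per tissue no test was made. Transcripts named are the described members, the 10 with the highest FPKM, the 5 with the largest ratio to the next tissue, the 3 on each side of the 4-fold limit, genes with 3 or more members and the highest described transcript of each list. Others, such as the members with 0 fragments elsewhere and those of shared graphs, genes and orthogroups, were named after their values were seen. Descriptions and orthogroup names came from the study's supplementary lists, held only in part. Alternatives were TPM (FPKM rescaled to one sum), median-of-ratios scaling, a pseudocount of 1, minima of 10 and 100 FPKM, no minimum on counts, lower counting limits and sums per Trinity gene. The code for the rule was checked on simulated Poisson counts, with known members raised beyond the 4-fold limit. The simulation held no variation between plants and no sharing of reads between transcripts, so it bears on neither.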

Additional observations from a re-analysis of the deposited data

How the results depend on the processing

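The members numbered 390. They numbered 642 with a minimum of 10 FPKM and 192 with a minimum of 100 FPKM, while TPM (380), median-of-ratios scaling (442), a pseudocount of 1 (377), no minimum on counts (396), lower counting limits (281) and sums per Trinity gene (346 genes) stayed within 1.5 times. Of the 390 members, 372 were kept under TPM, 390 under median-of-ratios scaling and 377 with the pseudocount, and all 9 described members were kept in each. Lower counting limits kept 4 of the 9 and a minimum of 100 FPKM kept 7. The 49 transcripts dominant in mother root became 29 with lower counting limits, 82 with a minimum of 10 FPKM and 25 with a minimum of 100 FPKM. The 10.7% of daughter root fragments held by members was 10.1% for the set found under TPM, 11.7% under median-of-ratios scaling and 9.76% without TR36775|c0_g1_i1. Every log2 ratio over mother root rose by 0.21 under median-of-ratios scaling, and every log2 ratio over leaf rose by 0.18 under TPM. Of the listed transcripts, TR13744|c0_g1_i1 (6-phosphofructokinase) turned from highest in mother root to highest in daughter root under median-of-ratios scaling, and the 99 described transcripts highest in daughter root became 96 under TPM and 119 under median-of-ratios scaling. No paired analysis was possible because each tissue had 1 library. The depth of leaf and rootlet limits ratios to them, where 243 and 174 members had under 10 fragments.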
